A study of Rattus norvegicus with 6 samples.

Results

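The insulin-like growth factor (IGF) system was examined in the aorta of spontaneously hypertensive rats (SHR), a rat line bred for high blood pressure. It was taken as 9 genes: the ligands Igf1 and Igf2, the receptors Igf1r and Igf2r, and the binding proteins Igfbp2, Igfbp3, Igfbp4, Igfbp5 and Igfbp6. Every probe set whose only gene symbol in the platform annotation was one of these belonged to it, which gave 23 of the 8799 probe sets on the chip. They covered 8 of the 9 genes, as 0 probe sets carried the symbol Igfbp4.

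Runners were SHR with access to a wheel in the cage for 5 weeks, and non-runners were SHR that did not run. Each group had 3 Affymetrix arrays, labelled A, B and C, with D, E and F added in brackets for the runner arrays. Each array carried RNA pooled from 3 aortae. Age, sex and the division of animals among pools are not stated in the labels, so p-values reflect no more than the variation from pool to pool, part of which may be technical. Because whole vessels were pooled, fewer cells of a type and less RNA per cell cannot be told apart.

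As background, Igf1 and Igf2 are secreted peptides that act mainly through the tyrosine kinase receptor encoded by Igf1r, which signals through phosphoinositide 3-kinase and Akt and through the MAP kinases. Igf2r is a scavenger: it takes Igf2 protein to the lysosome and is not a growth-signalling receptor. The binding proteins hold the ligands in blood and tissue and so set how much can reach the receptor. In arteries, Igf1 is known as a growth and survival factor of smooth muscle cells.

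Values are the deposited linear intensities, which have no read depth, so the number of arrays limits the precision. Probe sets differ in how well they bind, so each is compared only with itself across arrays. With no detection calls in the deposited table, a control level of 40.8 was used, the 95th percentile of the values of 19 controls aimed at yeast RNA or at the sense strand. Array medians lay between 28.5 and 32.2, and 36.8% of non-control probe sets were above the control level on all 6 arrays. Smooth muscle markers were bright throughout: Acta2, smooth muscle actin, measured 4080 ± 288 in runners and 4052 ± 987 in non-runners (n = 3 each, SD). Non-runner B stood apart, with a 3'/5' ratio of beta-actin of 2.14, against 1.22 to 1.43 in runners and 1.28 and 1.67 in the other non-runners. The ratio of GAPDH was higher on every non-runner array (1.223, 1.954 and 1.391 on A, B and C) than on any runner array (1.114 to 1.222). Non-runner A was above the highest runner by very little. Signal quality thus differed along with the groups, and its part in the IGF values was not tested. In pairs with that array the SD of log2 differences was 0.56 to 0.61, and in other pairs 0.36 to 0.41.

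No IGF system probe set passed the test between the aortae of runners and non-runners. Of 16 tested probe sets, 0 were higher and 0 lower in runners (limma, Benjamini-Hochberg adjusted p from 0.581 to 0.986), as were 0% of all 5244 tested. At an unadjusted p under 0.05, 0 of the 16 were higher, where 3.87% of all tested probe sets were, and 1 was lower, where 4.21% were. Groups that did not overlap were seen in 0 of the 16 in the higher direction and 0 in the lower, against 7.23% and 7.76% of all tested. A log2 difference here is runners minus non-runners on the scale log2(intensity + 2.4) after quantile normalization, which understates changes of dim genes.

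Taking the brightest probe set of each gene, 2 of the 8 genes had a difference above 0 and 6 below it. Their median was -0.04, beside -0.02 over all 3173 tested genes, of which 46.3% lay above 0. The 8 differences ran from -0.12 (Igf1r) to 0.38 (Igfbp2). For 7 of them, all but Igfbp5, that probe set was above the control level on all 6 arrays. Their 95% intervals, not adjusted for the number of tests, lay within a 1.5-fold change in either direction for 6, and within a 2-fold change for Igfbp2. The 7 probe sets left out as too dim measured 0.9 to 28.2 and lay below the control level on every array.

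**Figure D1:**
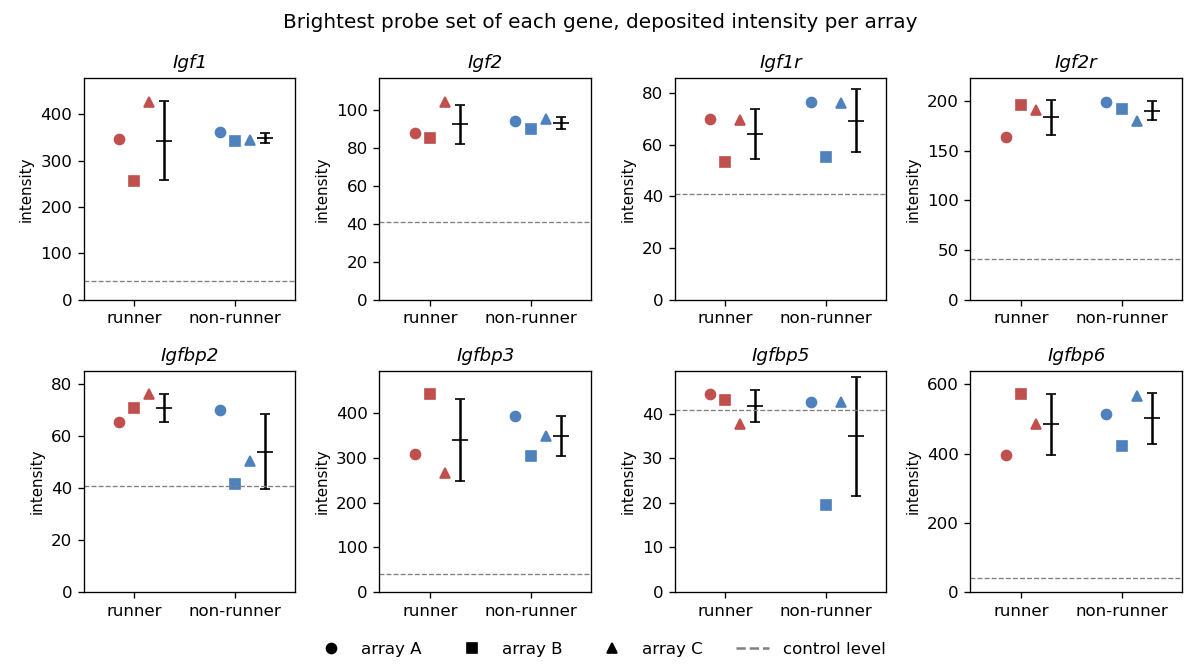
Deposited intensity (vertical axis, linear, from 0) of the brightest probe set of each of 8 genes, with a point for each array and the mean and SD of each group (n = 3) beside the points. The groups overlap in every panel, and the dashed line is the control level of 40.8.

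Igf1, made by the liver under growth hormone and also within the vessel wall, had 5 probe sets, and they did not run the same way. The brightest, M15481_g_at, measured 347, 255 and 426 on runner arrays A, B and C, against 361, 342 and 344 on the non-runner arrays. Runners thus held both the lowest and the highest value, while the non-runners lay close together. Means were 343 ± 85.5 in runners and 349 ± 10.6 in non-runners (n = 3 each, SD), a log2 difference of -0.07 ± 0.20 (SE, interval -0.54 to 0.40, limma adjusted p = 0.942).

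A second Igf1 probe set named for the same sequence, M15481_at, was the 1 with an unadjusted p under 0.05. It measured 37.6, 39.6 and 62.7 in runners, against 60.4, 68.9 and 63.7 in non-runners. Runners A and B lay below the control level, and runner C lay among the non-runners. The log2 difference was -0.50 ± 0.19 (SE, interval -0.95 to -0.05). By limma its unadjusted p was 0.0334 and its adjusted p = 0.581, so it did not pass across the chip. Without runner C it was -0.69 and without runner A -0.40, with adjusted p of 0.688 and 0.85 by limma.

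D00698_s_at, also an Igf1 probe set, leaned the other way, with 37.3, 28.7 and 36.6 in runners, against 19.7, 23.4 and 28.7 in non-runners. All these values lay below the control level, so no fold is given (limma adjusted p = 0.645). X06107_r_at measured 28.2 to 36.7 in runners and 27.5 to 36.3 in non-runners, also below that level, and X06107_i_at was too dim to be tested. Of the 5, M15481_g_at alone was above the control level on all 6 arrays.

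Igf2, a growth factor of fetal life whose gene is imprinted, had 6 probe sets, of which 3 were tested. X17012mRNA_s_at measured 88.2, 85.3 and 104 in runners, against 94.5, 90.0 and 95.7 in non-runners, with a log2 difference of -0.01 ± 0.15 (SE, interval -0.35 to 0.33, limma adjusted p = 0.986). M17960_g_at measured 70.1, 61.3 and 98.2 in runners, against 69.7, 74.8 and 82.9 in non-runners (log2 difference -0.02 ± 0.20 SE). M17960_at lay near the control level, at 40.7 to 57.6 in runners and 46.2 to 55.5 in non-runners. In each of these 3, runner B was the lowest of the runners and runner C the highest. The intervals of X17012mRNA_s_at and M17960_g_at lay within a 1.5-fold change in either direction.

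Igf1r, the signalling receptor, had a pair of probe sets above the control level on all 6 arrays. L29232_at measured 70.0, 53.2 and 69.4 in runners, against 76.5, 55.2 and 76.3 in non-runners (log2 difference -0.12 ± 0.19 SE, interval -0.56 to 0.32). M27293_s_at measured 48.2, 58.4 and 64.6 in runners, against 62.6, 50.5 and 47.4 in non-runners (0.07 ± 0.16 SE, interval -0.31 to 0.44). The signs differed, and the array order did too: L29232_at was lowest on the B array of each group, while M27293_s_at was lowest on runner A and non-runner C.

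Igf2r, which also sorts lysosomal enzymes that carry mannose 6-phosphate, had 1 probe set, above the control level on all 6 arrays. U59809_s_at measured 164, 197 and 191 in runners, against 199, 192 and 180 in non-runners. Runner A was lowest and the other arrays lay close together. The log2 difference was -0.05 ± 0.15 (SE, interval -0.39 to 0.29, limma adjusted p = 0.939).

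**Figure D2:**
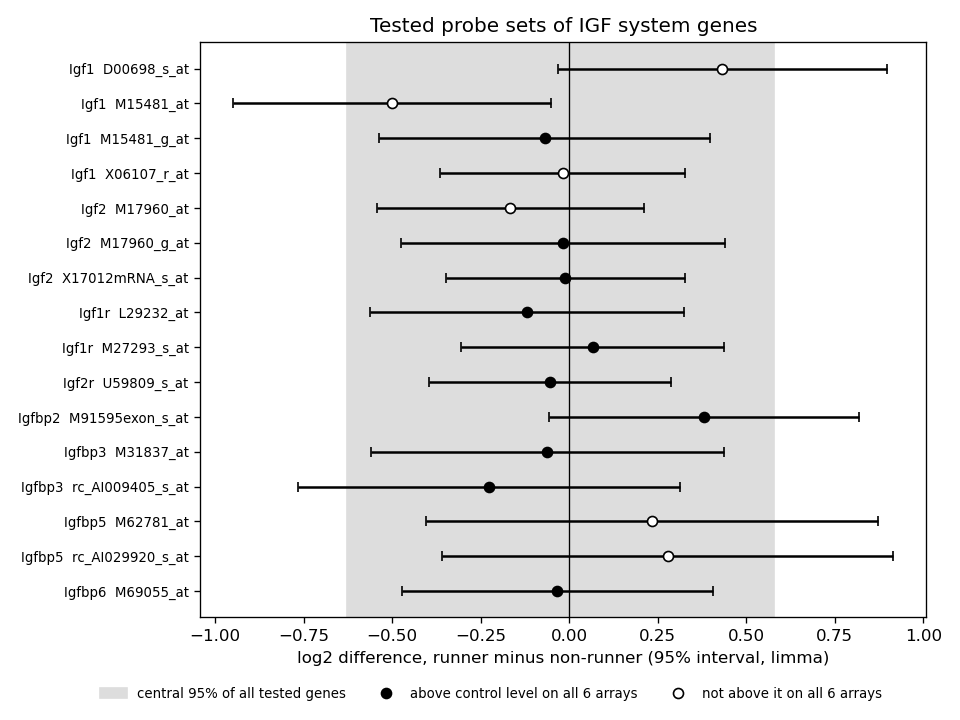
Log2 difference, runner minus non-runner, with its 95% interval from limma for the 16 tested probe sets, over a grey band that holds the central 95% of all tested genes (-0.63 to 0.58). All 16 points lie inside the band, and 15 intervals hold 0; open circles mark probe sets not above the control level on all 6 arrays.

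Among the binding proteins, Igfbp2 had the largest difference in a probe set above the control level on all 6 arrays. Its protein carries an integrin-binding motif and can act at the cell surface. M91595exon_s_at measured 65.4, 71.0 and 76.2 in runners, against 70.0, 41.7 and 50.4 in non-runners. Non-runner A lay among the runners, and non-runner B, the array with the high 3'/5' ratio, was lowest. Means were 70.9 ± 5.4 in runners and 54.0 ± 14.5 in non-runners (n = 3 each, SD), a log2 difference of 0.38 ± 0.19 (SE, interval -0.06 to 0.82, limma adjusted p = 0.649). Without non-runner B it was 0.22 (limma adjusted p = 0.775), and without non-runner A 0.55 (limma adjusted p = 0.417). The other Igfbp2 probe sets were too dim to be tested.

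Igfbp3, the main carrier of IGFs in blood, had a pair of bright probe sets that ranked the arrays differently. M31837_at measured 310, 442 and 266 in runners, against 394, 305 and 349 in non-runners. Runners again spanned the whole range, and the log2 difference was -0.06 ± 0.22 (SE, interval -0.56 to 0.44, limma adjusted p = 0.953). rc_AI009405_s_at measured 148, 216 and 155 in runners, against 155, 259 and 199 in non-runners (-0.23 ± 0.23 SE, interval -0.77 to 0.31). Non-runner B was the highest of all 6 arrays in this probe set and the lowest non-runner in M31837_at. Without non-runner B the difference of rc_AI009405_s_at was -0.04, and without non-runner A -0.41, with adjusted p of 0.962 and 0.541 by limma.

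In the RefSeq gene table of GRCr8, a rat assembly from which only names and order were taken, Igfbp3 and Igfbp1 are neighbouring protein-coding genes, as are Igfbp2 and Igfbp5. The Igfbp1 probe set, M58634_at, measured 3.1 to 4.2 in runners and 2.2 to 3.3 in non-runners, far below the control level, whereas both Igfbp3 probe sets were above it on all 6 arrays. Igfbp1 is best known as a product of liver.

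Igfbp5, which binds extracellular matrix, lay around or below the control level. rc_AI029920_s_at measured 44.4, 43.2 and 37.7 in runners, against 42.6, 19.6 and 42.6 in non-runners. Non-runner B was far below the other 5 arrays. The log2 difference was 0.28 ± 0.28 (SE, limma adjusted p = 0.799), and -0.04 without that array. M62781_at measured 21.5, 22.4 and 42.7 in runners, against 21.2, 17.4 and 30.1 in non-runners, and only runner C was above the control level.

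Igfbp6, which binds Igf2 more tightly than Igf1, had 1 probe set and it was bright. M69055_at measured 395, 571 and 487 in runners, against 515, 422 and 567 in non-runners. Means were 484 ± 88.0 in runners and 502 ± 73.3 in non-runners (n = 3 each, SD), a log2 difference of -0.03 ± 0.19 (SE, interval -0.47 to 0.41, limma adjusted p = 0.970).

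Within the runners, arrays B and C lay apart in several IGF genes, a pattern picked out after the values were seen and not tested. Runner B minus runner C was -0.74 (log2) in Igf1 M15481_g_at, where the groups differed by -0.07. Igfbp3 M31837_at went the other way, with runner B higher by 0.72, and in Igfbp6 it was higher by 0.21. On runner B the signal of Igf1 M15481_g_at was thus low, and those of Igfbp3 M31837_at and Igfbp6 were high. Other binding protein probe sets were mixed. Runner B minus runner C was 0.47 in Igfbp3 rc_AI009405_s_at and 0.28 in Igfbp5 rc_AI029920_s_at. It was -0.05 in Igfbp2 M91595exon_s_at and -0.81 in Igfbp5 M62781_at, which was dim. Runner B was lower than runner C in 11 of the 16 tested probe sets, several of which share a gene. The share over all tested probe sets was not set beside this count, so it is not read as a trait of the IGF genes.

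Marker lists for cell types also differed between those arrays. A list score, the mean centred log2 level of its tested genes, was -0.52 on runner B and 0.33 on runner C for skeletal muscle markers (4 genes), the widest gap of the 10 lists. It was 0.26 and -0.37 for brown fat (4 genes), 0.09 and 0.61 for red blood cells and platelets (5 genes), 0.02 and -0.42 for Schwann cells and nerve (4 genes) and 0.20 and -0.10 for macrophages (3 genes). Endothelial markers (7 genes) scored -0.15 and -0.31. Scores on these arrays lay closer for smooth muscle (-0.01 and 0.07), fibroblasts and adventitia (0.07 and -0.02), adipocytes (0.02 and 0.04) and liver (-0.18 and -0.19).

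Across the groups, the summed intensity of marker lists did not overlap for 4 of the 10, a count that was not tested. Among all tested probe sets, groups did not overlap for 7.23% in the higher direction and 7.76% in the lower. No such share was computed for sums of lists, so the count is not read as a difference in cell types. For the 6 blood markers the sum was 2401 to 4687 in runners and 1674 to 2154 in non-runners, with 5 above the control level on all arrays. Hbb and Hbb-b1 made up most of that sum, and the mean of Slc4a1 was lower in runners (85.7 against 95.9). The sum was lower in runners for the rest of these 4 lists. For the 6 Schwann cell and nerve markers it was 1028 to 1136 in runners and 1287 to 1554 in non-runners, with 2 above the control level. Most of it was Pmp22. Mbp, which was dim, went the other way, with 20.7, 30.2 and 21.1 in runners, against 13.0, 12.7 and 13.9 in non-runners. For the 9 endothelial markers the sum was 558 to 563 in runners and 577 to 712 in non-runners, with 4 above the control level. Egfl7 had the widest gap, with 37.2, 34.1 and 14.6 in runners, against 86.7, 140.1 and 129.7 in non-runners. This gene alone set the endothelial sums apart: with Egfl7 left out, the sums of the groups overlap. The endothelial list was mixed: means of Flt1, Icam2, Thbd and Nos3 were also lower in runners, and those of Pecam1 (171 against 134), Kdr and Vwf were higher. Of 6 liver markers, 0 were above the control level on all arrays, and their sum was 138 to 152 in runners and 157 to 182 in non-runners. The summed intensity of the 5 brown fat markers on the chip was 1584 to 2648 in runners and 1505 to 2738 in non-runners, with 4 above the control level, and that of the 7 skeletal muscle markers was 296 to 427 in runners and 363.6 to 503.6 in non-runners, with 2 above it. In each of the 10 lists 0 markers were at an intensity of 0. The part of these cells in the values of the IGF genes was not tested.

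**Figure D3:**
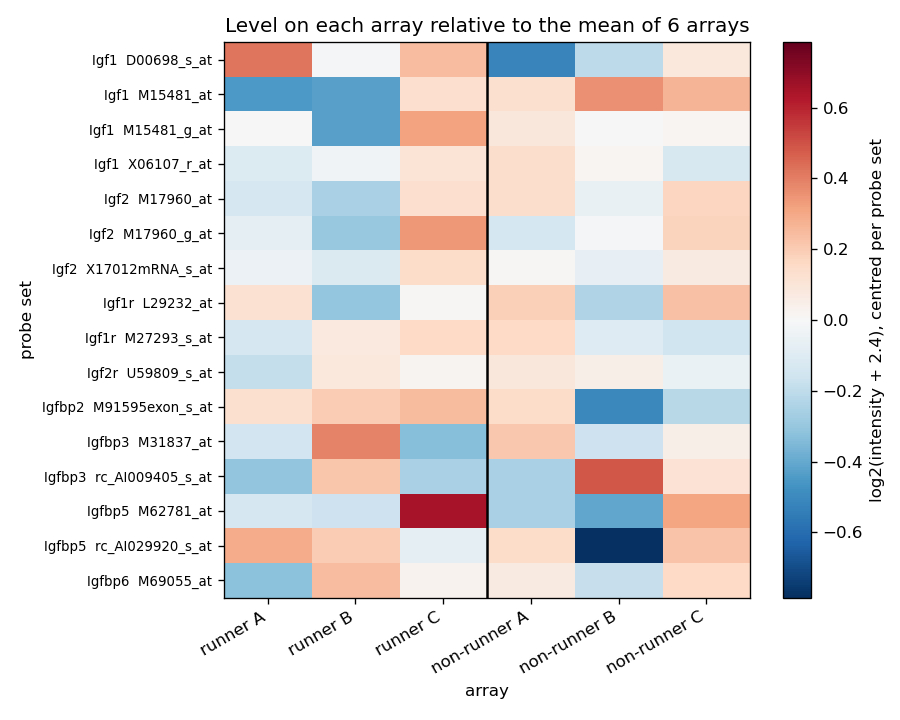
Level of each of the 16 tested probe sets (rows) on each array (columns, runners left of the line), as log2(intensity + 2.4) after quantile normalization, centred on the mean of the 6 arrays; red is above and blue below that mean. Igf1 M15481_g_at and the Igf2 rows are lowest in runner B and highest in runner C among runners, Igfbp3 M31837_at is reversed, and Igfbp5 rc_AI029920_s_at and Igfbp2 are lowest on non-runner B.

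For the 5 genes whose brightest probe set was above the control level on all arrays and spanned at least 0.5 (log2), the 3 genes with the nearest profile were sought among 3172 others. The measure was the root mean squared difference between centred log2 profiles over the 6 arrays, which is given with no test. Nearest to Igf1 was Inhba, a subunit of activins, at 0.065, followed by Map2k5 and Npy1r at 0.09. Nearest to Igf1r was Nqo1, a quinone reductase, at 0.072, then Reg3g and Bcat2. Igfbp2 lay nearest to Rab12, at 0.065, then Hfe and Prkar1a, which were likewise lowest on non-runner B. Igfbp3 lay nearest to Pex11a, at 0.086, then Scaf8 and Fbp2. For Igfbp6 they were Tshr, at 0.042, S1pr2 and Prp2l1. Of these genes, Npy1r, Reg3g and Fbp2 lay below the control level on all 6 arrays, and Pex11a, Scaf8 and Prp2l1 on some.

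The wider pathway was described through 5 gene lists, counting the brightest probe set of each gene. Of the other ligands, receptors and binding or related proteins, 4 of 6 tested genes lay above 0 and 2 below, with a median of 0.05. In the growth hormone axis the counts were 4 and 4 of 8 (median 0.02). Of the proteases and convertases that act on IGFs or their binding proteins, 8 of 10 lay above 0 (median 0.06). The receptor substrates and the PI3K-Akt branch had 12 of 22 above 0 (median 0.03), and the Ras-MAP kinase branch 8 of 13 (median 0.02). By limma's adjusted p, 0 genes passed in each of the 5 lists.

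At an unadjusted p under 0.05, the protease list had 3 of 10 genes higher in runners and 0 lower, where 3.87% of all tested probe sets were higher and 4.21% lower. The PI3K-Akt list had 1 of 22 higher, and the growth hormone and Ras-MAP kinase lists had 1 of 8 and 1 of 13 lower. They were Pik3r3, Gh1 and Ptpn11, all below the control level on every array. Without non-runner B, 429 of all 5244 tested probe sets had such a p by limma, in either direction. In that setting the protease list had 2 higher, the dim genes Plau and Mmp7, and Ctsd no longer had such a p. The PI3K-Akt list had 0 higher and the Ras-MAP kinase list 0 lower, while the growth hormone list again had 1 lower. The list of other ligands and receptors then had 1 higher, Insr, named after its values were seen (log2 difference 0.66 ± 0.24 SE, limma adjusted p = 0.562, against 0.32 ± 0.32 and adjusted p = 0.802 on all 6 arrays). Ctsd, the lysosomal protease cathepsin D, was the 1 of these 3 protease genes above the control level on all 6 arrays, and its protein reaches the lysosome by mannose 6-phosphate sorting. It measured 540, 560 and 498 in runners, against 433, 314 and 448 in non-runners. The groups did not overlap, non-runner B was lowest, and the log2 difference was 0.45 ± 0.18 (SE, limma adjusted p = 0.583), and without that array it was 0.29 ± 0.13 (SE, limma adjusted p = 0.634). Plau, the urokinase plasminogen activator, measured 34.8, 32.0 and 46.4 in runners, against 29.6, 25.6 and 21.9 in non-runners, with runner C alone above the control level. Mmp7, the third, lay below that level on all arrays.

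Igfals, the subunit that joins Igfbp3 and an IGF in blood, had 3 probe sets with differences of 0.13, 0.23 and 0.31 (log2; limma adjusted p from 0.672 to 0.829). In the third of these, rc_AA924289_s_at, runners measured 48.5, 60.6 and 56.5, against 37.6, 46.2 and 46.3 in non-runners, and the groups did not overlap. Insrr, an insulin receptor relative, measured 248, 267 and 300 in runners, against 412, 290 and 275 in non-runners, and the groups overlapped. Ins1 and Ins2, the insulin genes, measured 181 to 292 in runners and 227 to 303 in non-runners, although insulin is known as a product of pancreatic islets. A value above the control level is therefore not by itself evidence of the named transcript in the aorta. Insr, the insulin receptor, was above the control level on 2 of 6 arrays.

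Of the growth hormone axis, Cish, a feedback inhibitor of cytokine signalling, measured 40.9, 82.2 and 71.0 in runners, against 47.6, 38.2 and 56.9 in non-runners (log2 difference 0.37 ± 0.26 SE, limma adjusted p = 0.749). Socs2, another such inhibitor, was above the control level on 1 array, and Gh1 on 0.

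Downstream of the receptor, some bright genes were lower on every runner array and others higher, with no adjusted p under the threshold. Groups did not overlap for 2 higher and 2 lower genes of the 22 in the PI3K-Akt list, and for 2 higher and 3 lower of the 13 in the Ras-MAP kinase list, where 7.23% of all tested probe sets were higher in this way and 7.76% lower. These counts include Pik3r3 (higher), Irs1 and Ptpn11 (both lower), which lay below the control level on all arrays. Gsk3a, a kinase that Akt inhibits, measured 134, 134 and 152 in runners, against 160, 173 and 183 in non-runners (log2 difference -0.28 ± 0.14 SE, limma adjusted p = 0.649). Ywhab, a 14-3-3 adaptor protein that binds Raf kinases, measured 561, 491 and 532 in runners, against 615, 680 and 669 in non-runners (-0.30 ± 0.14 SE, limma adjusted p = 0.647). Ywhah, another 14-3-3 protein, measured 888, 865 and 890 in runners, against 1018, 1562 and 1015 in non-runners, with non-runner B far above the rest (log2 difference -0.39 ± 0.19 SE, limma adjusted p = 0.649). Without that array the log2 difference of Ywhah was -0.20 ± 0.13 (SE, limma adjusted p = 0.756).

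On the quantile normalized scale, which the counts above use, the bright genes higher on every runner array were Ywhaz, Map2k1 and Mtor. They were named after their values were seen. Ywhaz, a 14-3-3 protein like Ywhab and Ywhah, went the other way, with 927, 890 and 824 in runners, against 790, 688 and 802 in non-runners (log2 difference 0.24 ± 0.14 SE, limma adjusted p = 0.699). Map2k1, the kinase that activates the ERK MAP kinases, measured 223, 219 and 226 in runners, against 191, 178 and 217 in non-runners (0.19 ± 0.15 SE, limma adjusted p = 0.756). Of the 3 tested probe sets of Map2k1, only 2 had a difference above 0. Non-runner B was lowest in these probe sets of Ywhaz and Map2k1, and without it the log2 differences were 0.16 for Ywhaz and 0.12 for Map2k1. Mtor, a kinase that promotes cell growth downstream of Akt, measured 92.6, 87.7 and 90.6 in runners, against 81.6, 83.7 and 82.4 in non-runners (0.13 ± 0.14 SE, limma adjusted p = 0.811). Akt1 was also higher on every runner array in deposited intensity, with 289, 289 and 299, against 282, 263 and 268 in non-runners. After quantile normalization its groups overlapped (log2 difference 0.10 ± 0.14 SE, limma adjusted p = 0.860). Irs1, a substrate of the receptor, Pik3r3, a regulatory subunit of the kinase, and Ptpn11, a phosphatase that relays receptor signals, lay below the control level on all arrays.

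**Figure D4:**
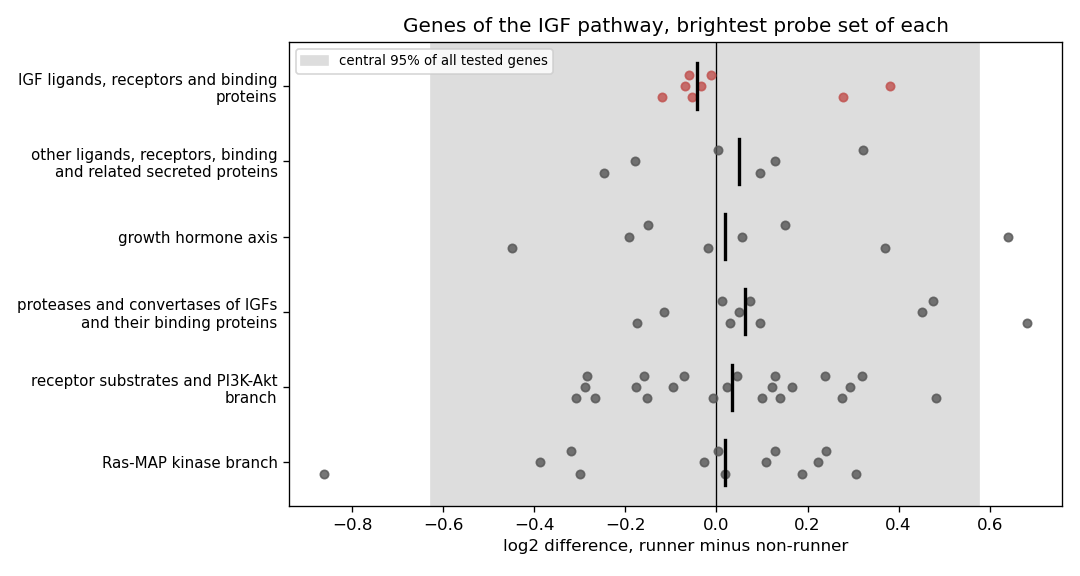
Log2 difference, runner minus non-runner, of the brightest probe set of each tested gene (points) in the IGF system, in red, and in 5 pathway lists, with the median of each as a black bar. Medians lie between -0.04 and 0.06, and most points lie inside the grey band, which holds the central 95% of all tested genes.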

How the data were processed

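Expression in rat aorta was measured on Affymetrix rat genome arrays, 3 per group. The deposited table holds linear intensities, 1 per probe set and array, and for the software behind them nothing is given in the sources used here (the labels and the table itself). Gene symbols came from the platform annotation, in which 7006 probe sets had 1 symbol, 308 several and 1426 none. Gene identifiers of 6985 of those with 1 symbol matched the RefSeq gene table of assembly GRCr8, which changed 0 symbols.

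A pseudocount of 2.4, the 10th percentile of all positive intensities, was added before log2 was taken. After 59 control probe sets were removed, the arrays were quantile normalized and the dimmest 40% left out, which left 5244 probe sets. A two-sided comparison used lmFit and eBayes of limma 3.58.1 (R 4.3.3), with p adjusted by Benjamini-Hochberg over all 5244 and called under 0.05. With 3 arrays per group the smallest p of an exact permutation test is 0.1, and that test was used only for the 3'/5' ratio of control probe sets, which was 1.31 ± 0.11 in runners and 1.70 ± 0.43 in non-runners for beta-actin (n = 3 each, SD, two-sided exact permutation p = 0.3). For GAPDH it was 1.17 ± 0.06 in runners and 1.52 ± 0.38 in non-runners (exact permutation p = 0.1).

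The genes and lists were chosen with earlier results of these data known. By rule, every probe set of the 9 genes was named, with the 3 genes of smallest p in each pathway list and the 3 nearest profiles. Ins1, Ins2, Igfbp1, Acta2, Ywhaz, Map2k1, Mtor and Akt1 were named besides. Single markers of the blood, Schwann cell and nerve, and endothelial lists were also named outside the rule, with their values known. The fit was tested on simulated data. Figures were drawn with matplotlib 3.10.9.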

Additional observations from a re-analysis of the deposited data

How the results depend on the processing

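The alternatives were planned, except that leaving non-runner B out of the pathway lists was chosen after seeing the data; its values stand with those lists. Among IGF system probe sets, 0 passed limma's adjusted p in either direction under every alternative run, with adjusted p from 0.417 to 0.999. Over all probe sets the counts were 0 higher and 0 lower in every alternative with 6 arrays, and 0 to 4 higher and 0 to 1 lower as each array was left out. The count of IGF probe sets at an unadjusted p under 0.05 became 1 higher and 0 lower without quantile normalization (Igf1 D00698_s_at in place of M15481_at), and 0 to 1 in each direction as arrays were left out. Of all 5244 tested probe sets, 402 had such a p by limma in either direction without quantile normalization, and 286 to 550 with an array left out. Groups did not overlap for 1 lower IGF probe set with median centring, and for 0 to 2 in each direction with an array left out. Smaller groups fail to overlap more often by chance, and the share over all probe sets is not given for these settings. Of 236 values of single probe sets under alternatives, 218 kept their direction and 18 did not. The sign of Igf1 X06107_r_at turned without quantile normalization (0.023), and its leave-one-out range was -0.083 to 0.045. The other leave-one-out ranges that crossed 0 were -0.27 to 0.0036 (Igf1r L29232_at), -0.24 to 0.13 (Igf1 M15481_g_at), -0.20 to 0.13 (Igf2 M17960_g_at), -0.27 to 0.091 (Igfbp3 M31837_at), -0.033 to 0.45 (Igfbp5 M62781_at), -0.16 to 0.12 (Igfbp6 M69055_at), -0.045 to 0.46 (Igfbp5 rc_AI029920_s_at), -0.11 to 0.024 (Igf2r U59809_s_at) and -0.086 to 0.043 (Igf2 X17012mRNA_s_at). The median over the 8 genes was -0.10 to -0.04 with 6 arrays and -0.07 to 0.02 as arrays were left out.

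Arrays that shared a chip letter did not deviate together (correlations -0.09, -0.04 and -0.05 across probe sets). With so few arrays this cannot settle whether the samples were paired, and the labels state no pairing. With the letter as a replicate block, 0 IGF probe sets were higher and 0 lower by limma, and 1 was lower at an unadjusted p under 0.05.

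Signal over the control level limits the Igfbp5 probe sets, Igf2 M17960_at and the Igf1 probe sets other than M15481_g_at, and their intervals are not read as limits on a change. In the 10 probe sets above that level on all arrays, the 95% intervals reached a fold of 1.76 (Igfbp2 M91595exon_s_at) at the high end and 0.588 (Igfbp3 rc_AI009405_s_at) at the low end.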
